A study of Rattus norvegicus with 18 samples.

Results

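Vimentin and the simple-epithelial keratins were followed in rat kidney through every probe set annotated to Vim, Krt7, Krt8, Krt18, Krt19 or Krt20. There were 6 such probe sets, 1 for each gene and none shared with another gene, among 31042 probe sets on the array once controls were left out. That is 6 of 14217 genes that a probe set names alone. Of these 6, 5 passed the filter on dim probe sets and were tested, and the Krt20 probe set did not. The genes lie on chromosome 17 (Vim), chromosome 7 (Krt7, Krt8 and Krt18) and chromosome 10 (Krt19 and Krt20) of the rat assembly GRCr8, so none lies on the chromosome for which the congenic strain is named.

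Whole kidneys of 18 male rats were profiled, 1 Affymetrix Rat Genome 230 2.0 array each. The first strain is the Dahl salt-sensitive inbred rat (Dahl S, strain SS/Jr), which develops hypertension and kidney damage, with 9 rats. The second is S.SHR(2), also with 9 rats, a congenic derived from SS/Jr and SHR/NHsd in which a segment of chromosome 2 of the spontaneously hypertensive rat sits on the Dahl S background, and which the series title calls protective for the kidney. The design text gives 3 rats of each strain at 4, 12 and 20 weeks. The age, and a low-salt diet of 0.3% NaCl, are labelled for only 2 rats, both Dahl S: rat 2 at 4 weeks and rat 4 at 12 weeks. The arrays were deposited as 3 successive blocks of 6, each holding 3 Dahl S and then 3 S.SHR(2) rats. Dahl S rat 2 lies in block 1 and Dahl S rat 4 in block 2, but the labels give no age for the other 16 rats, so a block is used here only as an order of deposit and is not called an age. Rats are numbered 1 to 9 within a strain in that order, so that block 1 holds rats 1 to 3, block 2 rats 4 to 6 and block 3 rats 7 to 9 of each strain. Whatever separates the blocks, age, hybridisation or anything else, cannot be told apart here.

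Intermediate filaments are the rope-like part of the cytoskeleton that resists stretching. Vimentin forms them in mesenchymal cells, endothelium, leukocytes and glomerular podocytes. Tubular epithelium contains keratins, in some segments more than in others, and is known to take up vimentin when it is injured and regenerating. Keratins assemble only as pairs of a type II chain (Krt7 and Krt8 here) with a type I chain (Krt18, Krt19 and Krt20 here). Krt8 with Krt18 is the general pair of simple epithelia, Krt7 and Krt19 mark ducts such as the collecting duct as well as the urothelium that lines the renal pelvis, and Krt20 is known from the intestine and the surface cells of the urothelium.

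The 3 members with an entry in the RefSeq promoter table that were tested are shown by the stretch from 190 to 71 bases before the RefSeq start of the gene, since Krt8 and Krt18 are neighbours with no protein-coding gene between them and had their lowest mean in the same block of both strains, while Vim had a course of its own in Dahl S. An entry was matched for 4 of the 6 members, and Krt7 and Krt19 are named only. Each run of 120 bases is written 5′ to 3′ on the strand of the gene. Capitals mark matches on either strand to the TATA-box motif TATAAA, the CCAAT box, the Sp1 core motif GGGCGG or the AP-1 motif TGANTCA.
Vim, plus strand of chr17:81577071-81577190: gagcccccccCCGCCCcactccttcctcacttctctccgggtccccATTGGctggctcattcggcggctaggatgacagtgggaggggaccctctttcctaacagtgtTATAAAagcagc
Krt8, minus strand of chr7:135010410-135010529: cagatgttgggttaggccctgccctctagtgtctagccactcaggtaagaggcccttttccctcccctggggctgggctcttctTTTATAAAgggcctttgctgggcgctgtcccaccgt
Krt18, plus strand of chr7:135035978-135036097: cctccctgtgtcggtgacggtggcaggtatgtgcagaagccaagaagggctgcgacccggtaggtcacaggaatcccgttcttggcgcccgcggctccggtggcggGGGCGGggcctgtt
The Vim stretch holds TATAAA 82 to 77 bases before the start, CCAAT on the opposite strand 144 to 140 bases before it and GGGCGG on the opposite strand 180 to 175 bases before it. The Krt8 stretch holds TATAAA on both strands, 104 to 99 and 106 to 101 bases before the start, in overlapping positions. The Krt18 stretch holds GGGCGG 84 to 79 bases before the start and no TATAAA within the window shown. Bases closer to the start than 71 were not scanned for any of the 3 genes, so a motif there would have been missed. Of the 33469 promoters in the table, 5.78% held TATAAA in the same window, 19.1% held CCAAT, 17.7% held GGGCGG and 2.97% held TGANTCA, which was in none of the 3. These are matches of letters and were not tested against the expression values.

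The arrays carried kidney RNA by their markers, with Umod of the thick ascending limb at 5258.0 to 7695.2 units, Slc34a1 of the proximal tubule at 4672.0 to 9492.5 and Aqp2 of the collecting duct at 1662.1 to 3594.1 over the 18 rats. Arrays of the same block correlated across probe sets at a median of 0.980 and arrays of different blocks at 0.964. The brightest probe set of an array stood at 11117.1 to 14648.3 units in blocks 1 and 2 and at 7508.3 to 9498.5 in block 3, so the top of the range lay lower in block 3 before quantile normalization. The ratio of the GAPDH control probe sets at the 3′ and 5′ ends, a sign of RNA integrity, was 1.19 to 2.51 in block 1, 1.28 to 2.04 in block 2 and 1.50 to 1.60 in block 3, with the highest values in S.SHR(2) rat 1 and Dahl S rat 5. For the actin control probe sets the same ratio was 2.22 to 6.83 in block 1. It was 3.14 to 5.88 in block 2 and 2.27 to 3.004 in block 3, so blocks 2 and 3 did not overlap. The actin ratio was not used as a covariate, and its part in the changes from block 2 to block 3 was not tested. Changes below are on the scale of log2(intensity + 16) after quantile normalization, with the standard error (SE) and the limma p adjusted by Benjamini-Hochberg over all 18625 probe sets tested, and a change passed where that adjusted p was under 0.05. The p-values measure the spread between these rats only.

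Vim stood at the same level in blocks 1 and 2 and higher in block 3, and passed the test in Dahl S. In Dahl S the intensities were 677.8, 670.1 and 638.5 in block 1, 616.1, 745.8 and 624.5 in block 2, and 1254.6, 1262.0 and 931.2 in block 3. All 3 rats of block 3 lay above all 6 earlier Dahl S rats. Vim rose 1.74-fold from block 2 to block 3 (log2 change 0.80 ± 0.14 SE, n = 3 rats each, limma adjusted p = 3.7e-04) and was 1.72-fold above block 1 (0.79 ± 0.14, adjusted p = 3.3e-04). From block 1 to block 2 the log2 change was −0.02 ± 0.14 (95% interval −0.31 to 0.28, adjusted p = 0.97).

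In S.SHR(2) Vim was at 586.1, 650.7 and 658.8 in block 1, at 542.9, 639.5 and 635.6 in block 2, and at 709.5, 1094.9 and 686.9 in block 3. The 3 rats of block 3 were again above all earlier rats of their strain, but only rat 8 reached the range of Dahl S in that block. The log2 change from block 2 to block 3 was 0.37 ± 0.14 (95% interval 0.07 to 0.66, adjusted p = 0.075) and that from block 1 to block 3 was 0.31 ± 0.14 (adjusted p = 0.10), and neither passed. The call depended on the scaling. Median-centred arrays gave 0.54 for the step from block 2 to block 3 (limma adjusted p = 0.019) and 0.48 from block 1 to block 3 (adjusted p = 0.028). Centring moved the whole array as well. The median change of all tested probe sets became 0.10 and 0.09 for these steps, from 0.02 and 0.01. Without S.SHR(2) rat 8 the Vim step from block 2 to block 3 was 0.17, and without rat 9 it was 0.47 (adjusted p = 0.039).

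Krt8, the type II partner of Krt18, was lower in block 2 than in the blocks on either side, in both strains. In Dahl S it was at 1324.5, 1203.7 and 1051.0 in block 1, at 890.8, 582.2 and 758.9 in block 2, and at 1218.0, 1154.1 and 1168.9 in block 3. No rat of block 2 reached the lowest rat of block 1 or block 3. Krt8 fell 1.63-fold from block 1 to block 2 (log2 change −0.71 ± 0.15 SE, n = 3 each, limma adjusted p = 0.0042) and rose by the same factor of 1.63 from block 2 to block 3 (0.71 ± 0.15, adjusted p = 0.0017). Blocks 3 and 1 differed by 0.00 ± 0.15 (95% interval −0.31 to 0.30).

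The S.SHR(2) rats followed the same course for Krt8, with 835.3, 1249.0 and 1126.8 in block 1, 732.9, 753.5 and 742.7 in block 2, and 1059.6, 1322.0 and 979.7 in block 3. The 3 rats of block 2 lay close together and below all other rats of the strain. Krt8 fell 1.42-fold from block 1 to block 2 (−0.51 ± 0.15, adjusted p = 0.034) and rose 1.44-fold from block 2 to block 3 (0.53 ± 0.15, adjusted p = 0.015). The fall was lost without S.SHR(2) rat 2, 3, 4, 5 or 6 (adjusted p of 0.085 to 0.16), when dim probe sets were kept in (adjusted p = 0.058) and when limma used no intensity trend (adjusted p = 0.062), and the rise was lost without S.SHR(2) rat 8 (0.42, adjusted p = 0.093). In S.SHR(2) the lowest rat of block 1 was rat 1, and in Dahl S the lowest rat of block 2 was rat 5, which are the rats with the highest GAPDH ratios, 2.51 and 2.04. Without both, an alternative chosen after the data were seen, both steps of Krt8 still passed in both strains (adjusted p of 6.4e-04 to 0.0054).

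Krt7, the type II keratin of ducts and urothelium, had the same course with smaller steps. In Dahl S it was at 1171.1, 1111.8 and 1036.4 in block 1, at 898.5, 726.8 and 872.8 in block 2, and at 1017.1, 1066.0 and 1027.5 in block 3. It fell by 0.45 ± 0.10 on the log2 scale from block 1 to block 2 (n = 3 each, limma adjusted p = 0.0082) and rose by 0.34 ± 0.10 from block 2 to block 3 (adjusted p = 0.020). Both Dahl S calls were lost on median-centred arrays (−0.37 and 0.30, adjusted p = 0.054 and 0.072) and without Dahl S rat 5 (log2 changes −0.35 and 0.25, adjusted p = 0.061 and 0.13), and the second was lost without Dahl S rat 7, 8 or 9 as well (adjusted p of 0.054 to 0.061), and without the 2 arrays of highest GAPDH ratio (0.25, adjusted p = 0.096).

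In S.SHR(2) Krt7 was at 1021.6, 1170.3 and 964.7 in block 1, at 905.8, 851.7 and 909.2 in block 2, and at 1304.9, 1349.8 and 1112.6 in block 3. The rats of block 2 were the lowest of the strain, and 2 of the 3 rats of block 3 were the highest of all 18 rats. The first step of −0.25 ± 0.10 did not pass (adjusted p = 0.14), although it did with array weights (−0.32, adjusted p = 0.022) and with the GAPDH ratio as a covariate (−0.29, adjusted p = 0.043). Krt7 rose 1.36-fold from block 2 to block 3 (0.44 ± 0.10, limma adjusted p = 0.0043). The call held in all 18 fits that left out 1 rat each, although only those without an S.SHR(2) rat of block 2 or 3 change the estimate.

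**Figure D1:**
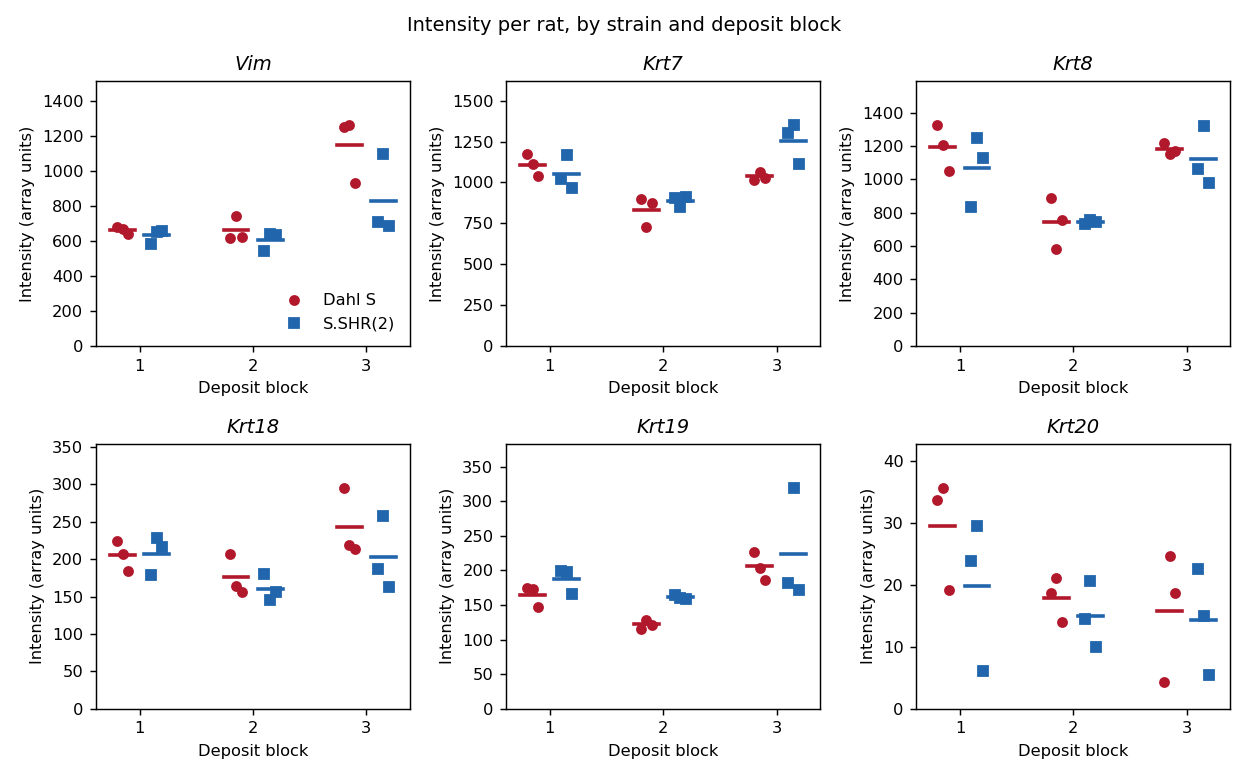
Intensity in array units (linear axis from 0) of each of the 6 genes in each rat, by deposit block (x axis) and strain (red circles, Dahl S; blue squares, S.SHR(2)); bars are the means of 3 rats. Vim is level in blocks 1 and 2 and reaches 1262.0 units in block 3, Krt7, Krt8, Krt18 and Krt19 have their lowest mean of both strains in block 2, and Krt20 stays under 36 units.

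Krt18, the type I partner of Krt8, moved in the same directions without passing the test at any step. In Dahl S it was at 224.7, 206.7 and 184.2 in block 1, at 206.5, 164.8 and 156.8 in block 2, and at 295.3, 218.8 and 213.5 in block 3. In S.SHR(2) it was at 178.7, 227.7 and 216.3, then at 180.4, 145.5 and 155.9, and then at 186.4, 257.7 and 163.1. The ranges of blocks 2 and 3 were separate in Dahl S and overlapped in S.SHR(2). From block 1 to block 2 the log2 changes were −0.21 ± 0.16 in Dahl S and −0.33 ± 0.16 in S.SHR(2) (limma adjusted p = 0.47 and 0.22), and from block 2 to block 3 they were 0.39 ± 0.16 and 0.29 ± 0.16 (adjusted p = 0.088 and 0.22). The Dahl S step from block 2 to block 3 passed with array weights (0.40, adjusted p = 0.024) and without Dahl S rat 4 (0.51, adjusted p = 0.0495).

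Krt19, a small type I keratin of ducts that lacks the usual tail domain, rose from block 2 to block 3 in Dahl S. Its intensities there were 174.2, 173.8 and 147.2 in block 1, 115.9, 128.3 and 121.4 in block 2, and 226.9, 204.0 and 186.3 in block 3. The 3 blocks did not overlap in Dahl S, with block 2 lowest and block 3 highest. The rise was 1.56-fold (0.64 ± 0.16 SE, n = 3 each, limma adjusted p = 0.0069), and the step from block 1 to block 2 was −0.37 ± 0.16 (adjusted p = 0.17).

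In S.SHR(2) Krt19 was at 198.5, 197.4 and 165.6 in block 1, at 165.0, 159.5 and 158.9 in block 2, and at 181.2, 319.3 and 172.4 in block 3. The value of rat 8 stood far above the other rats of both strains. The step from block 2 to block 3 was 0.39 ± 0.16 (adjusted p = 0.098) and fell to 0.13 without rat 8, while the first step was −0.18 ± 0.16 (adjusted p = 0.54). On median-centred arrays, where the median of all tested probe sets was 0.10, the second step was 0.51 (limma adjusted p = 0.035). Without rat 9 that step of Krt19 was 0.54 (adjusted p = 0.031).

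Krt20, the keratin of intestinal and superficial urothelial cells, was dim on every array. It ranged from 4.3 to 35.6 units in Dahl S, with a median of 19.2, and from 5.4 to 29.4 in S.SHR(2), with a median of 15.0. Values of this size lie around the pseudocount of 16, and no detection calls were used here, so signal above background was not shown. When all 31042 probe sets were tested, none of its log2 changes between blocks or strains passed, and the largest of the steps from 1 block to the next was −0.37 ± 0.30 (Dahl S, block 1 to block 2, adjusted p = 0.59).

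The members' calls were set against those of all probe sets. The 5 tested members lay at the 75.8 to 95.9 percentile of mean level, and the shares were not matched for brightness. From block 1 to block 2 in Dahl S, 2 of the 5 tested members fell (Krt7 and Krt8) and none rose, against 3.6% of all probe sets called lower and 4.63% called higher, 8.23% in all. In S.SHR(2) 1 of 5 fell (Krt8), against 4.19% of all probe sets called lower and 4.83% called higher, 9.03% in all. From block 2 to block 3, 4 of 5 rose in Dahl S (all but Krt18), against 9.72% of all probe sets called higher and 10.5% called lower, 20.2% in all. In S.SHR(2) 2 of 5 rose (Krt7 and Krt8), against 8.78% called higher and 18.8% called in either direction. The ranges of the 3 rats were separate between blocks 1 and 2 for 3 of the 5 members in Dahl S (Krt7, Krt8 and Krt19) and for the same 3 in S.SHR(2), as they were for 25.1% and 27.7% of all probe sets. Between blocks 2 and 3 they were separate for 5 of 5 in Dahl S and for 4 of 5 in S.SHR(2), as for 41.9% and 38.8% of all probe sets. Between blocks 1 and 3 they were separate for Vim and Krt19 in Dahl S and for Vim in S.SHR(2), as for 38.9% and 41.7% of all probe sets. For the first step the 5 members had a median log2 change of −0.37 in Dahl S beside 0.00 for all probe sets, and of −0.25 in S.SHR(2) beside 0.00. For the second step their median was 0.64 in Dahl S beside 0.00, and 0.39 in S.SHR(2) beside 0.02. The 4 tested keratins were below 0 at the first step in both strains, and all 5 members were above 0 at the second. Vim was level at the first step, at −0.02 ± 0.14 in Dahl S and −0.06 ± 0.14 in S.SHR(2). Its sign there turned in 4 other fits in Dahl S and in 1 in S.SHR(2). Krt8, Krt7, Krt18 and Krt19 can share cells, so these 5 are not independent observations, and the steps share the arrays of block 2. From block 1 to block 3 only Vim in Dahl S passed, 1 of 5, against 11.5% of all probe sets called higher and 23.8% called in either direction. In S.SHR(2) 0 of 5 passed by limma (1 with an unadjusted p under 0.05), against 30.6% called in either direction.

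**Figure D2:**
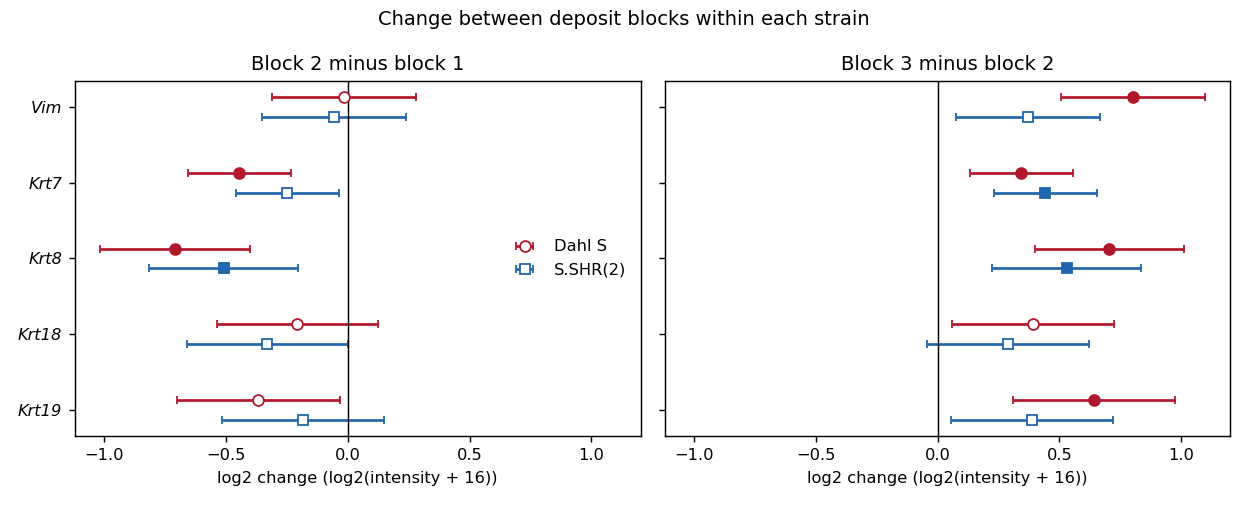
Log2 change (x axis, on the log2(intensity + 16) scale) of the 5 tested genes from block 1 to block 2 (left) and from block 2 to block 3 (right) in Dahl S (red circles) and S.SHR(2) (blue squares); bars are 95% intervals and filled symbols have an adjusted p under 0.05. The keratins lie left of 0 in the first panel, with Krt8 at −0.71 and −0.51, and all 5 genes lie right of 0 in the second, with Vim in Dahl S at 0.80.

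Between the strains, none of the 5 tested members differed over all 18 rats. Vim ranged from 616.1 to 1262.0 units in Dahl S with a median of 677.8, and from 542.9 to 1094.9 in S.SHR(2) with a median of 650.7. The ranges of the strains overlapped for all 6 genes. The strain difference, S.SHR(2) minus Dahl S, was −0.25 ± 0.15 SE for Vim (95% interval −0.56 to 0.07), −0.11 ± 0.15 for Krt8, −0.10 ± 0.11 for Krt18, 0.07 ± 0.10 for Krt7 and 0.21 ± 0.13 for Krt19, with a limma adjusted p of 1.0 for each (n = 9 each). Of the 5, 0 had an unadjusted p under 0.05, and 0.123% of all probe sets were called. With the deposit block as a covariate the adjusted p of the 5 was still above 0.05, and 92 probe sets were called over the array in place of 23.

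Within the blocks 0 of the 5 members passed, with 0.161%, 0.123% and 0.338% of all probe sets called in blocks 1, 2 and 3, and the largest difference was that of Vim in block 3. There the S.SHR(2) rats 7 and 9 were at 709.5 and 686.9 units, below the lowest Dahl S rat at 931.2, while S.SHR(2) rat 8 at 1094.9 lay among the Dahl S rats at 1254.6, 1262.0 and 931.2. The difference was −0.55 ± 0.14 SE (1.46-fold lower in S.SHR(2), n = 3 each, limma adjusted p = 0.12), so it did not pass over all probe sets, though its unadjusted p was 9.0e-04. Without S.SHR(2) rat 8 it was −0.74 (adjusted p = 0.014), and with array weights −0.69 (adjusted p = 4.9e-04). The other alternatives gave −0.36 to −0.56 (adjusted p of 0.073 to 0.30), and the other fits that left out 1 rat gave −0.44 to −0.69 (adjusted p of 0.066 to 0.59). In blocks 1 and 2 the Vim difference was −0.07 ± 0.14 and −0.12 ± 0.14.

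Among the 4 tested keratins, Krt19 had the widest strain gap within a block. In block 2 the 3 S.SHR(2) rats, at 165.0, 159.5 and 158.9, lay above the 3 Dahl S rats, at 115.9, 128.3 and 121.4. The difference of 0.36 ± 0.16 did not pass (limma adjusted p = 1.0), and the ranges of the strains were separate for 9.27% of all probe sets in that block. Krt19 differed by 0.17 ± 0.16 in block 1 and by 0.10 ± 0.16 in block 3. Krt7 in block 3 was also separate between the strains, 1112.6 to 1349.8 in S.SHR(2) against 1017.1 to 1066.0 in Dahl S (0.20 ± 0.10, adjusted p = 0.51), where 20.4% of all probe sets were separate. Krt8 and Krt18 differed by −0.21 to 0.02 in the 3 blocks, with overlapping ranges in each. In block 1 no member was separate between the strains, against 10.6% of all probe sets.

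**Figure D3:**
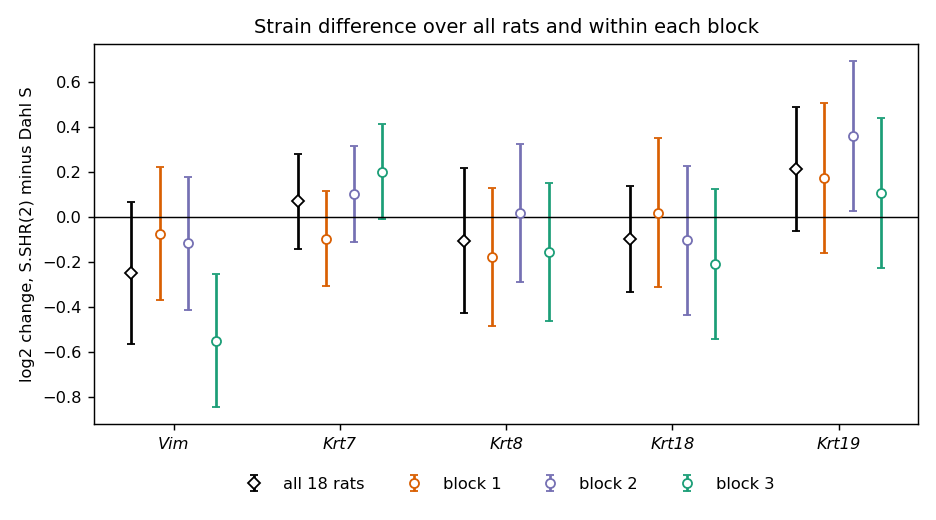
Strain difference (y axis, S.SHR(2) minus Dahl S, log2 scale) of the 5 tested genes over all 18 rats (black diamonds) and within each deposit block (coloured circles); bars are 95% intervals. No difference has an adjusted p under 0.05, and the largest is that of Vim in block 3 at −0.55.

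Whether the course over the blocks differed between the strains was tested as an interaction. From block 1 to block 3 Vim changed by 0.47 ± 0.20 less in S.SHR(2) on the log2 scale (interaction −0.47, 95% interval −0.89 to −0.06, limma adjusted p = 0.49, unadjusted p = 0.028). It did not pass in any alternative, with adjusted p values from 0.12 to 0.65, nor in the fits that left out 1 rat (adjusted p of 0.37 to 0.71). The interactions of Krt7 (0.30 ± 0.14), Krt19 (−0.07 ± 0.23), Krt8 (0.02 ± 0.21) and Krt18 (−0.23 ± 0.23) did not pass either. Over all probe sets 2 passed this interaction (0.0107%) and 0 passed that from block 1 to block 2 (0%), where 1041 had an unadjusted p under 0.05, none of them a member. The Vim rise that passed in Dahl S and not in S.SHR(2) was therefore not shown to differ between the strains.

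Few other filament genes could be tested. Of 23 further keratins 16 were on the array and 3 were bright enough to be tested, Krt10, Krt15 and Krt17, none of which passed at either step in either strain. Among 15 other intermediate filament and lamin genes, 8 were tested. At the first step 2 rose in Dahl S, and 1 rose and 1 fell in S.SHR(2), and at the second step 1 fell in each strain. Over the array 8.23% and 9.03% of probe sets were called at the first step in Dahl S and S.SHR(2). For the second step these shares were 20.2% and 18.8%. Nefm, a neurofilament subunit, was the largest of these, at mean levels of 17.7, 249 and 208 units in the 3 blocks of Dahl S and 11.1, 219 and 152 in S.SHR(2). Its rise from block 1 to block 2 was 3.02 ± 0.14 and 3.17 ± 0.14 on the log2 scale (limma adjusted p = 7.3e-12 and 2.2e-12), and its block 1 levels lay near the pseudocount, so that the scale understates it. Synm, the filament linker synemin, rose at the first step in Dahl S (0.58 ± 0.15, adjusted p = 0.020) and fell at the second (−0.45 ± 0.15, adjusted p = 0.039). Lmnb1, a nuclear lamin, fell at the first step in S.SHR(2) (−0.62 ± 0.16, adjusted p = 0.021).

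Proteins that bind or anchor filaments were tested for 15 of 17 listed genes. At the first step 1 fell in Dahl S and 4 in S.SHR(2) and none rose. Of all probe sets 8.23% and 9.03% were called in either direction at that step. Cryab, the small heat shock protein alpha-B crystallin that protects filaments, fell in both (−1.31 ± 0.11 and −0.998 ± 0.107, limma adjusted p = 5.1e-08 and 2.3e-06). Hspb1, another small heat shock protein, fell in S.SHR(2) (−1.05 ± 0.26, adjusted p = 0.014) and was at −0.26 ± 0.26 in Dahl S. At the second step 4 rose and 1 fell in Dahl S, and 2 rose and 2 fell in S.SHR(2). Of all probe sets 20.2% and 18.8% were called in either direction at that step. Ywhag, a 14-3-3 adaptor of the family that binds phosphorylated keratin, rose in both strains (0.89 ± 0.11 and 0.78 ± 0.11, adjusted p = 4.6e-06 and 2.1e-05), while Dst, a linker of filaments to hemidesmosomes, fell in both (−0.60 ± 0.10 and −0.78 ± 0.10, adjusted p = 3.3e-04 and 1.8e-05).

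Genes of epithelial junctions, among them those of the desmosomes to which keratins attach, were tested for 23 of 27 listed. At the second step 5 rose and 3 fell in Dahl S and 6 rose and 1 fell in S.SHR(2), with medians of 0.23 and 0.21. Of all probe sets 20.2% and 18.8% were called in either direction at that step. Cdh1, the epithelial cadherin, rose in both (1.10 ± 0.19 and 0.93 ± 0.19, limma adjusted p = 2.7e-04 and 0.0015), and Ctnnb1, which links cadherin to actin, fell in both (−1.04 ± 0.11 and −1.18 ± 0.11, adjusted p = 1.1e-06 and 1.9e-07). At the first step 2 fell in Dahl S and 0 passed in S.SHR(2) by limma, where 8.23% and 9.03% of all probe sets were called. Regulators and markers of epithelial-to-mesenchymal transition, in which vimentin itself is a textbook marker, were tested for 15 of 20 listed. At the second step 5 rose and 1 fell in Dahl S, and 3 rose and 1 fell in S.SHR(2), beside the same 20.2% and 18.8%. Zeb2, a transcription repressor of the epithelial state, rose (0.89 ± 0.19 and 0.77 ± 0.19, adjusted p = 0.0017 and 0.0060), as did Smad3, a mediator of transforming growth factor beta (0.76 ± 0.15 and 0.60 ± 0.15, adjusted p = 0.0012 and 0.0086), and S100a4, a calcium-binding protein of fibroblasts and leukocytes (1.28 ± 0.24 and 0.83 ± 0.24, adjusted p = 6.5e-04 and 0.019). Zeb1, the relative of Zeb2, fell (−2.09 ± 0.24 and −2.11 ± 0.24, adjusted p = 3.0e-06 and 2.6e-06).

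Markers of injury and of other cells that make these filaments moved across the same blocks. The 24 injury markers on the array, without the members, summed to 14642.3 to 17428.8, 20662.0 to 22105.5 and 31293.3 to 33537.0 units in blocks 1, 2 and 3 of Dahl S. In S.SHR(2) they summed to 9681.8 to 14932.2, 19413.4 to 21953.6 and 23818.8 to 30330.2. Of 21 tested, 18 rose and none fell at the second step in Dahl S, and 14 rose and 1 fell in S.SHR(2), where Prom1, a surface protein of injured tubules, fell (−0.42 ± 0.10, limma adjusted p = 0.0054). Among those that rose in both was Tnfrsf12a, the receptor of TWEAK (1.35 ± 0.16 and 0.84 ± 0.16, limma adjusted p = 4.7e-06 and 0.0010). Of all probe sets 20.2% and 18.8% were called in either direction at that step. At the first step, where Vim stood level, 9 rose and 1 fell in Dahl S, where S100a6, a calcium-binding protein named here after its values were seen, fell (−1.13 ± 0.27, adjusted p = 0.010), and 9 rose and none fell in S.SHR(2). Havcr1, the tubular injury protein Kim-1, rose in both (3.23 ± 0.29 and 2.37 ± 0.29, adjusted p = 1.7e-07 and 1.3e-05). Of all probe sets 8.23% and 9.03% were called in either direction at the first step.

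The 13 macrophage markers, whose cells also contain vimentin, summed to 3971.3 to 4928.3 units in block 1, 6338.5 to 6856.0 in block 2 and 6469.9 to 8309.2 in block 3 over both strains, none of them at 0. Of 11 tested, 3 rose at the first step in Dahl S and 7 in S.SHR(2), 4 and 1 rose at the second, and none fell. Over the array 8.23% and 9.03% of probe sets were called at the first step in Dahl S and S.SHR(2). For the second step these shares were 20.2% and 18.8%, and they apply to the lists below as well. The 14 fibroblast markers, of another vimentin-rich cell type, summed to 5543.2 to 6445.4, 3708.0 to 3725.1 and 4280.6 to 5365.8 units in the 3 blocks of Dahl S, and to 4851.7 to 5065.3, 3877.1 to 4288.5 and 3489.7 to 4462.3 in S.SHR(2). All 3 Dahl S rats of block 3 thus lay above those of block 2, while the ranges of these blocks overlapped in S.SHR(2). Of 10 tested, 6 fell at the first step in Dahl S and 3 in S.SHR(2), and none rose. At the second step 4 rose and none fell in Dahl S (median 0.41), among them Col3a1, a fibrillar collagen (0.76 ± 0.11, limma adjusted p = 6.7e-05), and 1 rose and none fell in S.SHR(2) (median 0.03), where Col3a1 was at 0.03 ± 0.11. The 10 lymphocyte markers, of which 4 were bright enough to be tested, had mean sums of 248, 359 and 547 units in the 3 blocks of Dahl S and 207, 344 and 457 in S.SHR(2). All 4 were higher at each step in both strains, but only 1 rose at each step in Dahl S and 0 and 1 in S.SHR(2) by limma, with Lck, a T-cell kinase, rising at the second step in both (0.56 ± 0.17 and 0.58 ± 0.17, adjusted p = 0.026 and 0.024). S.SHR(2) rat 8 carried the highest macrophage sum of all 18 rats beside its high Vim and Krt19. The 11 endothelial markers summed to 4703.6 to 5057.2 in block 1, 3556.5 to 4016.0 in block 2 and 3051.2 to 3563.9 in block 3. The ranges of blocks 2 and 3 overlapped. All 11 were tested, and at the first step 1 rose and 5 fell in Dahl S and 1 rose and 6 fell in S.SHR(2). At the second step 4 fell in Dahl S and 2 in S.SHR(2), and none rose. Vwf was the gene that rose (2.32 ± 0.21 and 2.11 ± 0.21, limma adjusted p = 2.1e-07 and 8.0e-07). The 7 podocyte markers summed to 2121.4 to 2429.9, 2232.2 to 2564.2 and 1896.0 to 2511.3. In bulk tissue more cells of a type and more RNA per cell cannot be told apart, and the part of these cells in the Vim values was not tested.

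Markers of the collecting duct and of the urothelium, where Krt7 and Krt19 are found, were set beside the keratins. The 14 collecting duct markers summed to 8208.2 to 9884.2 units in block 1, 5943.9 to 7738.9 in block 2 and 5971.8 to 7380.9 in block 3. Of these, 4 fell at the first step in Dahl S and 5 in S.SHR(2) and none rose, where 8.23% and 9.03% of all probe sets were called in either direction, such as Aqp3, a water channel (−0.61 ± 0.11 and −0.40 ± 0.11, limma adjusted p = 0.0011 and 0.025). At the second step 2 rose and none fell in Dahl S, and 1 rose and 2 fell in S.SHR(2), where 20.2% and 18.8% of all probe sets were called. The medians of the list were 0.00 and 0.08, and Krt7 changed by 0.34 and 0.44 and Krt19 by 0.64 and 0.39. The 12 urothelium markers summed to 603.9 to 673.4, 322.4 to 381.5 and 376.1 to 458.7 in the 3 blocks of Dahl S. In S.SHR(2) the same 12 summed to 577.8 to 680.6, 341.8 to 674.1 and 309.8 to 457.3. Their defining uroplakins were dim, with Upk1a at 13.1 to 53.0, Upk1b at 6.2 to 62.3, Upk2 at 10.4 to 40.8 and Upk3a at 9.6 to 60.6, and none was at 0. Of 4 tested, 3 fell at the first step in Dahl S and 0 passed in S.SHR(2) by limma, where 2 were higher and 2 lower. Upk3a, though dim, was tested and was among those that fell in Dahl S (−0.98 ± 0.28, limma adjusted p = 0.032). At the second step 0 passed in Dahl S and 1 fell in S.SHR(2). That gene was Gata3 (−0.83 ± 0.23, limma adjusted p = 0.015), which is on the collecting duct list as well and is counted in both. Between the strains in block 2, all 4 tested urothelium markers were higher in S.SHR(2) (median 0.59), the block and direction of the Krt19 gap. None of the 4 passed, where 0.123% of all probe sets were called. The part of pelvic lining or of collecting duct in the keratin values was not tested.

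**Figure D4:**
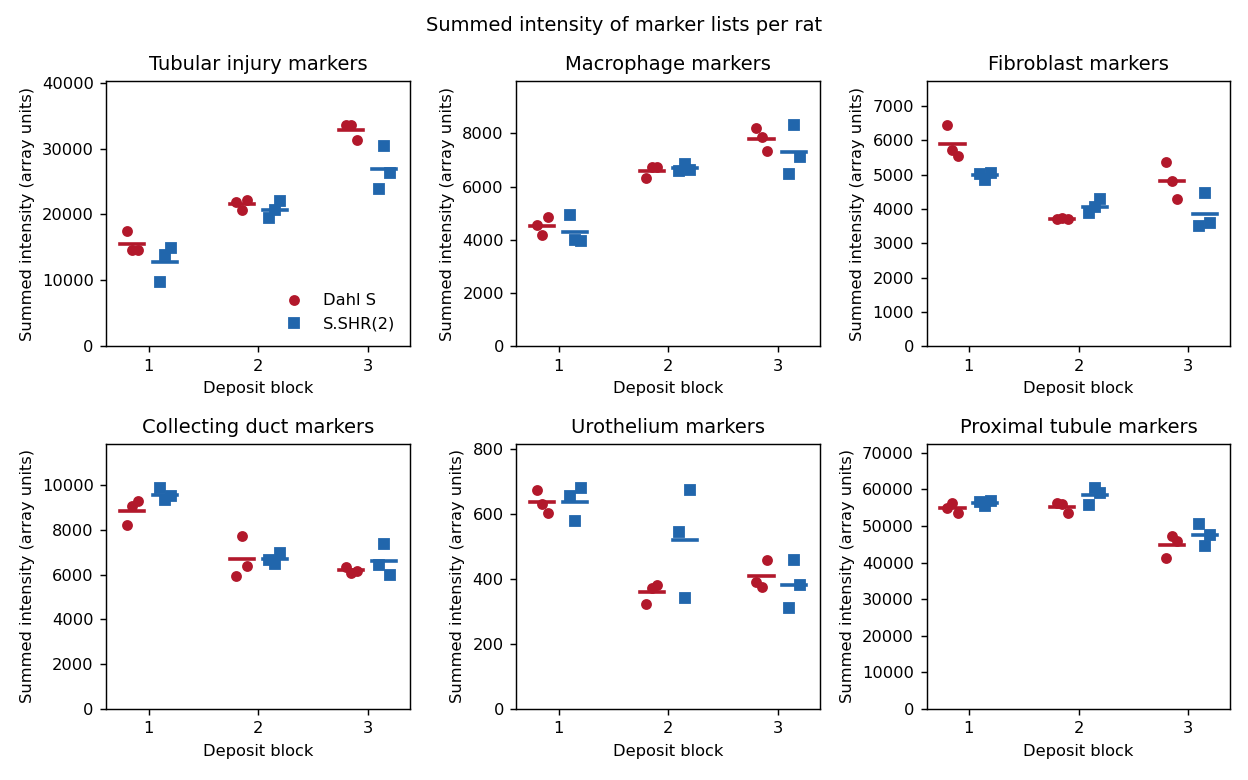
Summed intensity in array units (linear axis from 0) of 6 marker lists in each rat, by deposit block and strain; bars are means of 3 rats. The injury sum climbs at both steps, to 33537.0 units, the macrophage sum is already higher in block 2, the collecting duct sum is lower in blocks 2 and 3, and the proximal tubule sum is lower in block 3, where after quantile normalization 1 of 15 of its genes fell from block 2 in Dahl S and none in S.SHR(2), with medians of −0.08 and −0.11.

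The genes most like each tested member over the 18 arrays were taken by Pearson's r among 10482 other genes, as a description, since all share the blocks. For Vim they were Anxa5 (r = 0.97), Vcam1 (0.94) and Lgals3 (0.94), of which Vcam1 and Lgals3 are on the injury list. For Krt8 they were Col4a2 (0.95), Ly6e (0.94) and Apoe (0.93). For Krt18 they were Krt8 (0.80), the sodium channel subunit Scnn1g (0.80) and Rpl7a (0.78). For Krt7 they were Gata2 (0.89), Egfl8 (0.89) and Atraid (0.89), and for Krt19 Fbxo6 (0.85), Ifi30 (0.84) and Tmem109 (0.83). No other member was among the nearest 3 of Vim, Krt7, Krt8 or Krt19.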

How the data were processed

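The authors deposited linear intensity values, 1 for each probe set of each array. Read from those values, each array was scaled so that the mean without the top and bottom 2% was 150. Which software made them is not stated in the labels, and neither scanner images nor calls of presence were used. Here 57 controls were left out, values were transformed as log2(intensity + 16) and quantile normalized, and the 40% dimmest of 31042 probe sets were left out (18625 tested). Models were fitted with limma 3.58.1 (R 4.3.3; lmFit, eBayes with trend): strain alone over 18 rats, and a mean for each strain and block with 1 shared spread. Tests are two-sided, adjusted by Benjamini-Hochberg over all probe sets tested. The fits were tested on simulated data. Gene names came from GEO's platform table, with symbols updated through GRCr8 (20758 of 20826 matched), and a gene is its brightest probe set naming it alone. Every member was named, up to 4 genes of a list by smallest p, and the 3 nearest genes by r. Members and lists were chosen with earlier results of these data known. Other settings tried were a pseudocount of 1 or of 64, a filter of 60% or none, the deposited values or median-centred arrays without quantile normalization, eBayes without trend or robust, array weights, the GAPDH ratio or block as a covariate, and each rat left out. Figures were drawn with matplotlib 3.10.9.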

Additional observations from a re-analysis of the deposited data

Results flagged for a closer look

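In S.SHR(2), rat 8 stood apart from the other 8 rats of its strain by Dixon's test for Vim (1094.9 units, against 709.5 for the next) and for Krt19 (319.3, against 198.5). In Dahl S, rat 7 stood apart for Krt18 (295.3, against 224.7). All 3 values are high and belong to block 3. Chance marks about 1 group in 20 in this way if all rats of a group come from 1 normal distribution, and 12 groups were looked at. Each group pooled 3 blocks that differed in level for these genes, so that rate need not hold here.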

How the results depend on the processing

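No paired analysis was possible because the labels give no replicate numbers that strains or blocks share. The results held in all 11 alternatives and all 18 fits without 1 rat for Vim, Krt8 and Krt19 from block 2 to 3 in Dahl S, Vim from block 1 to 3 and Krt8 from block 1 to 2 in Dahl S, and Krt7 from block 2 to 3 in S.SHR(2). Leaving out a rat outside the groups compared changes the shared spread and the adjustment, not the log2 change. The number of members called moved elsewhere. For the strain difference in block 3 it was 1 (Vim) in place of 0 with array weights, and 0 to 1 without 1 rat (1 without S.SHR(2) rat 8). For Dahl S from block 1 to 2 it was 1 in place of 2 on median-centred arrays, and 1 to 3 without 1 rat (1 without Dahl S rat 5, 3 without S.SHR(2) rat 8). For Dahl S from block 2 to 3 it was 3 in place of 4 on median-centred arrays and without the 2 arrays of highest GAPDH ratio (Krt7 lost), 5 with array weights (Krt18 gained), and 3 to 5 without 1 rat. For S.SHR(2) from block 1 to 2 it was 0 in place of 1 with no filter or no trend, 2 with array weights or the GAPDH covariate, and 0 to 1 without 1 rat. For S.SHR(2) from block 2 to 3 it was 4 in place of 2 on median-centred arrays, and 1 to 4 without 1 rat (1 without S.SHR(2) rat 8, 4 without rat 9). For S.SHR(2) from block 1 to 3 it was 2 (Vim and Krt7) in place of 0 on median-centred arrays. The causes were not tested.

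Signs turned for 15 of 60 log2 differences, none of them called. Krt8 between strains in block 2 was −0.046 with array weights, −0.027 with the GAPDH covariate and −0.14 without the 2 arrays of highest GAPDH ratio, and −0.14 to 0.15 without 1 rat. Krt8 between strains in block 3 was 0.039 on median-centred arrays. Krt19 between strains in block 3 was −0.041 with array weights and −0.16 to 0.26 without 1 rat. Without 1 rat, Krt18 between strains was −0.052 to 0.11 in block 1 and −0.18 to 0.014 in block 2. In Dahl S, Vim from block 1 to 2 was 0.031 on median-centred arrays and −0.096 to 0.038 without 1 rat, and Krt8 from block 1 to 3 was 0.012 on median-centred arrays, 0.12 with the GAPDH covariate and −0.084 to 0.064 without 1 rat. In S.SHR(2), Vim from block 1 to 2 was −0.12 to 0.015 without 1 rat. From block 1 to 3 in S.SHR(2), Krt8 was −0.17 with array weights, −0.048 with the GAPDH covariate, −0.16 without the 2 arrays and −0.16 to 0.14 without 1 rat, Krt18 was 0.073 on median-centred arrays and −0.21 to 0.094 without 1 rat, and Krt19 was −0.056 to 0.36 without 1 rat. The interaction from block 1 to 2 was −0.0073 for Krt8 with array weights, −0.026 with the GAPDH covariate and −0.14 without the 2 arrays, and −0.11 to 0.037 for Vim without 1 rat. The interaction from block 1 to 3 was −0.16, −0.17 and −0.16 for Krt8 in the same order and −0.16 to 0.15 without 1 rat, and 0.0052 for Krt19 on median-centred arrays and −0.33 to 0.084 without 1 rat.

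Over all probe sets, median-centring moved the calls higher in S.SHR(2) from 1635 of 3497 to 2965 of 4404 (block 2 to 3) and from 2876 of 5697 to 3909 of 6041 (block 1 to 3), and for the strain difference from 18 of 63 to 76 of 94 in block 3 and from 4 of 23 to 7 of 21 over all rats. Array weights called 1245 in block 3 and 45 in place of 23 in block 2, 41 in place of 23 over all rats, 5716 in place of 3769 in Dahl S from block 2 to 3 and 5534 in place of 3497 in S.SHR(2), and 42 in place of 2 for the interaction from block 1 to 3, where the other alternatives called 1 to 5. In block 3, 36 were called with no filter, 28 without trend, 125 with the GAPDH covariate and 120 without the 2 arrays.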
